A study of Mus musculus with 2 samples.

Results

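Bst2, Ifi27l2a, Ifitm1, Ifitm2, Ifitm3, Ly6e, Ly6a and Ly6c1 are 8 of the 33696 genes counted in single cells of PyMT-M and PyMT-N mammary tumors. They were chosen by name, as small membrane-associated proteins of interferon biology and of endothelial surface phenotype, and with their values in these libraries known. Their levels in the 5 cell classes described here are what they were chosen on and are given as a description, with no test. The question behind the libraries was how blood vessels differ between a tumor with many macrophages and one with few. PyMT-M (High-MAC) is the macrophage-enriched subline and PyMT-N (Low-MAC) the neutrophil-enriched one. Both are sublines of MMTV-PyMT tumors, in which a mammary tumor virus promoter, active mainly in mammary epithelium, drives the polyoma middle T oncogene. Cells of either line were injected into the mammary fat pad of female C57BL/6 mice that were 6 to 8 weeks old. The labels name no treatment for either group. Tumors were dissociated, CD45+ and Ter119+ cells were depleted on magnetic beads, and cells were enriched on CD31 and CD144 beads and sorted as CD31+ CD144+. Each condition was 1 library made from 3 pooled tumors, so differences between mice, between sublines and between library preparations cannot be told apart, and no p-value was computed.

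Type I interferons bind the Ifnar receptor, which activates Jak1 and Tyk2 and leads to the binding of a DNA element called the ISRE by a complex that holds Stat2 and Irf9. Interferon gamma binds the Ifngr receptor, which activates Jak1 and Jak2 and acts through the GAS element. Endothelial cells respond to both kinds of interferon. Bst2, also called tetherin, holds enveloped viruses at the surface of the cell that made them and was first known as a bone marrow stromal antigen. Ifitm1, Ifitm2 and Ifitm3 restrict the entry of viruses through membranes. Ifi27l2a belongs to the Ifi27 (ISG12) family of small hydrophobic proteins induced by interferon. Ly6e, Ly6a and Ly6c1 are GPI-anchored surface proteins of the Ly6 family. Ly6a is the stem cell antigen Sca-1, found also on vascular endothelium, and Ly6c1 carries the Ly6C epitope of mouse capillaries.

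Promoters of 5 of the 8 genes were listed by RefSeq for the build GRCm38.p6, and 4 are shown because the members differ in whether they carry the interferon elements. Each window runs from 250 bases before to 50 bases after a transcription start, and capitals mark the letters searched on both strands, GAAA and a second GAAA with 2 bases between them for the ISRE core and TTCNNNGAA for GAS. Bst2 lies at chr8:71537423-71537722 on the minus strand, Ifitm3 at chr7:141010695-141010994 on the minus strand, Ifitm2 at chr7:140955912-140956211 on the minus strand, and the first of 2 Ly6c1 windows at chr15:75048788-75049087 on the minus strand.
Bst2: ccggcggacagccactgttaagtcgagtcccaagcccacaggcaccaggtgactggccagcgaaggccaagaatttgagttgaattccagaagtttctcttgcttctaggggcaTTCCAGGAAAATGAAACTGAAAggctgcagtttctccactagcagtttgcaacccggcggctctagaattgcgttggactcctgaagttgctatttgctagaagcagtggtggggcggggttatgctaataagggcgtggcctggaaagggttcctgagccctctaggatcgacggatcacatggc
Ifitm3: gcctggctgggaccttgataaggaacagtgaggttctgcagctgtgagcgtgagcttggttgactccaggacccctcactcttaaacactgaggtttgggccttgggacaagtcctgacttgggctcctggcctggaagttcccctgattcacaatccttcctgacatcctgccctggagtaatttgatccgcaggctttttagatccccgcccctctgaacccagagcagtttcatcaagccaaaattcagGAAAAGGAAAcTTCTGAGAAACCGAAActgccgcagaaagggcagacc
Ifitm2: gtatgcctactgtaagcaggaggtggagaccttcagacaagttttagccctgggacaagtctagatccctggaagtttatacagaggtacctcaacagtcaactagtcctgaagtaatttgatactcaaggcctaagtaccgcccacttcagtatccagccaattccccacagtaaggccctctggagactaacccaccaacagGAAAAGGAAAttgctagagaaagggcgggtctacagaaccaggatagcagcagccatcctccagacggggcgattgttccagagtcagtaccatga
Ly6c1: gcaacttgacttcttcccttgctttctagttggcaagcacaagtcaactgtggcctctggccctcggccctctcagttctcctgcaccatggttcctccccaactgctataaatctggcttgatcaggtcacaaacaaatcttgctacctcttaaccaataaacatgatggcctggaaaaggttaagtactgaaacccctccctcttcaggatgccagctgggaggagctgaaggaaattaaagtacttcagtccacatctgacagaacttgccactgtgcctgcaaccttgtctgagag
The Bst2 window held ISRE letters beginning 130 and 124 bases before the start, which overlap each other, and GAS letters beginning 136 bases before it, which overlap the first ISRE match. The Ifitm3 window held ISRE letters beginning 3 and 20 bases after the start and a GAS match beginning 14 bases after it. Ifitm2 held 1 ISRE match, 46 bases before the start. The 2 Ly6c1 windows and the Ifitm1 window (chr7:140967826-140968125, plus strand) held neither. Among 32851 promoter windows of this length, 3.44% held the ISRE letters, 8.30% the GAS letters and 0.454% both. Ifi27l2a, Ly6e and Ly6a had no entry.

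Cells with at least 200 detected genes and at most 10% mitochondrial UMIs (unique molecules counted) were kept, which left 6719 of 7821 barcodes in PyMT-M and 5607 of 6974 in PyMT-N. A cell counted as blood endothelial with at least 5 UMIs of Pecam1, Flt1, Emcn and Kdr together, at most 1 of Krt8, Krt18 and Rhox5, and none of Prox1. It counted as lymphatic with at least 3 UMIs of Prox1, Mmrn1 and Reln, as tumor with at least 3 of Krt8, Krt18 and Rhox5 and none of Pecam1 or Flt1, as fibroblast with at least 3000 CPM of Col3a1, and as Ptprc+ with at least 1 UMI of Ptprc, the gene of CD45. Pairs of values are given with PyMT-M first and PyMT-N second from here on. The rules found 588 and 1065 blood endothelial cells, 20 and 207 lymphatic, 4902 and 3306 tumor, 58 and 63 fibroblast, and 488 and 357 Ptprc+ cells. Although both libraries were labelled as endothelial, most kept cells therefore fell in the tumor class. The tumor class of PyMT-M held almost no Krt18 (0.0662 CPM, against 1003 in PyMT-N) and was found mainly by Rhox5 (669 CPM, against 14.5), so the word tumor here stands for the rule. In both libraries 7 epithelial markers outside the rule (Epcam, Krt7, Krt19, Krt14, Krt5, Cdh1 and Cldn4) were scarce in this class, summing to 3.67 and 1.59 CPM. Pericyte markers summed to 263 and 311 CPM there, and fibroblast markers to 61.8 and 353 CPM. Median depth per blood endothelial cell was 5206.5 and 12696 UMIs, so shares of cells were also taken after thinning every cell to 3000 UMIs, and 20 barcodes were found in both libraries. In the blood endothelial class all 8 endothelial markers were present, with summed levels of 6644 and 6295 CPM. Levels below are counts per 1e6 UMIs (CPM), the UMIs of a gene scaled to the UMI total of the summed class, with exact Poisson 95% intervals that cover counting error only. UMIs here come from the 3′ end of transcripts, so levels are compared for a gene across classes and libraries, not between genes.

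Bst2 was higher in PyMT-M than in PyMT-N in all 5 classes. In blood endothelial cells it stood at 1813 CPM (1767 to 1859) and 648 CPM (635 to 661). Lymphatic cells gave 1573 and 687 CPM, tumor cells 990.1 and 251, fibroblast cells 1141 and 309.6, and Ptprc+ cells 711 and 262. The order of the classes was much the same in both libraries, with both endothelial classes on top and their intervals overlapping. In PyMT-M the tumor class stood between the fibroblast and Ptprc+ classes, whereas in PyMT-N its interval overlapped that of the Ptprc+ class at the bottom. The detection of Bst2 in 94.9% and 95.2% of blood endothelial cells hid the difference in level.

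Ifi27l2a varied widely over classes. Lymphatic cells held the highest level of PyMT-M, 3236 CPM (2873 to 3632), and 786 CPM (754 to 819) in PyMT-N. Blood endothelial cells held 307 CPM (288 to 326) and 65.9 CPM (61.8 to 70.1). The lymphatic class thus stood above the blood endothelial class in both libraries, with intervals that did not overlap. In tumor cells Ifi27l2a was detected in 83.01% of PyMT-M cells at 282 CPM and in 4.05% of PyMT-N cells at 4.67 CPM, the widest gap between libraries of any member there. Fibroblast cells gave 1307 and 155 CPM, and Ptprc+ cells 1018 and 803 CPM.

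Of the Ifitm genes, Ifitm3 was found in nearly every endothelial cell and Ifitm1 in few cells of any class. Ifitm3 stood at 4367 CPM (4296 to 4439) in PyMT-M blood endothelial cells and 2034 CPM (2011 to 2057) in those of PyMT-N. It was higher still in lymphatic cells, at 6595 and 2659 CPM, and lower in tumor cells, at 1754 and 1274 CPM. Fibroblast cells held 3531 and 1435 CPM of it, and Ptprc+ cells 1774 and 652 CPM. Ifitm2 varied least between the libraries in blood endothelial cells, at 1088 CPM (1053 to 1124) and 826 CPM (811 to 841), and it was lower in PyMT-M than in PyMT-N in tumor cells, at 483 and 789 CPM. Its levels were 1865 and 794 CPM in lymphatic, 1535 and 959.5 in fibroblast and 656 and 456 in Ptprc+ cells. Ifitm1 was highest in Ptprc+ cells, at 109 and 125 CPM. Fibroblast cells held 52.1 and 1.96 CPM of it, from 28 and 3 UMIs, in 12.1% and 4.76% of cells. Ifitm1 was low in the other classes. Blood endothelial cells held 16 Ifitm1 UMIs in PyMT-M (4.85 CPM, 0.850% of cells) and 158 in PyMT-N (10.6 CPM, 1.13% of cells). Tumor cells held 0.803 and 1.96 CPM. Lymphatic cells held no Ifitm1 UMI in PyMT-M and 1 in PyMT-N.

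The Ly6 genes fell into 2 patterns over classes. Ly6e was broad, with blood endothelial levels of 1638 CPM (1594 to 1682) and 835 CPM (820 to 850), lymphatic levels of 1483 and 645 CPM, tumor levels of 719.9 and 871 CPM, fibroblast levels of 996 and 414 CPM and Ptprc+ levels of 943 and 1022 CPM. In PyMT-M the highest Ly6e levels were in both endothelial classes, and in PyMT-N the highest was in Ptprc+ cells and the next in tumor cells. Ly6a and Ly6c1 were high in blood endothelial cells and scarce in lymphatic ones. Ly6a stood at 2354 CPM (2302 to 2407) and 744 CPM (731 to 758) in blood endothelial cells, and at 56.2 and 31.04 CPM, from 5 and 88 UMIs, in lymphatic cells. Ly6c1 stood at 1267 CPM (1229 to 1306) and 684 CPM (671 to 698) in blood endothelial cells. In lymphatic cells it was at 18.3 CPM (52 UMIs) in PyMT-N and had no UMI in the 20 cells of PyMT-M, where the interval reached 41.4 CPM. Fibroblast cells of PyMT-M carried both genes, Ly6a at 2289 CPM and Ly6c1 at 663 CPM, against 150.2 and 45.7 CPM in PyMT-N. Tumor cells gave 456 and 189 CPM of Ly6a and 69.7 and 22.7 CPM of Ly6c1, and Ptprc+ cells 479 and 294 CPM of Ly6a and 41.8 and 56.5 CPM of Ly6c1. Reads shared by close relatives such as Ly6c1 and Ly6c2, or among the Ifitm genes, may have been split or lost in counting, so these levels are uncertain to that extent. Ly6c2, the form carried by monocytes, stood at 2.43 and 5.37 CPM in blood endothelial cells and at 254 and 92.7 CPM in Ptprc+ cells.

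**Figure D1:**
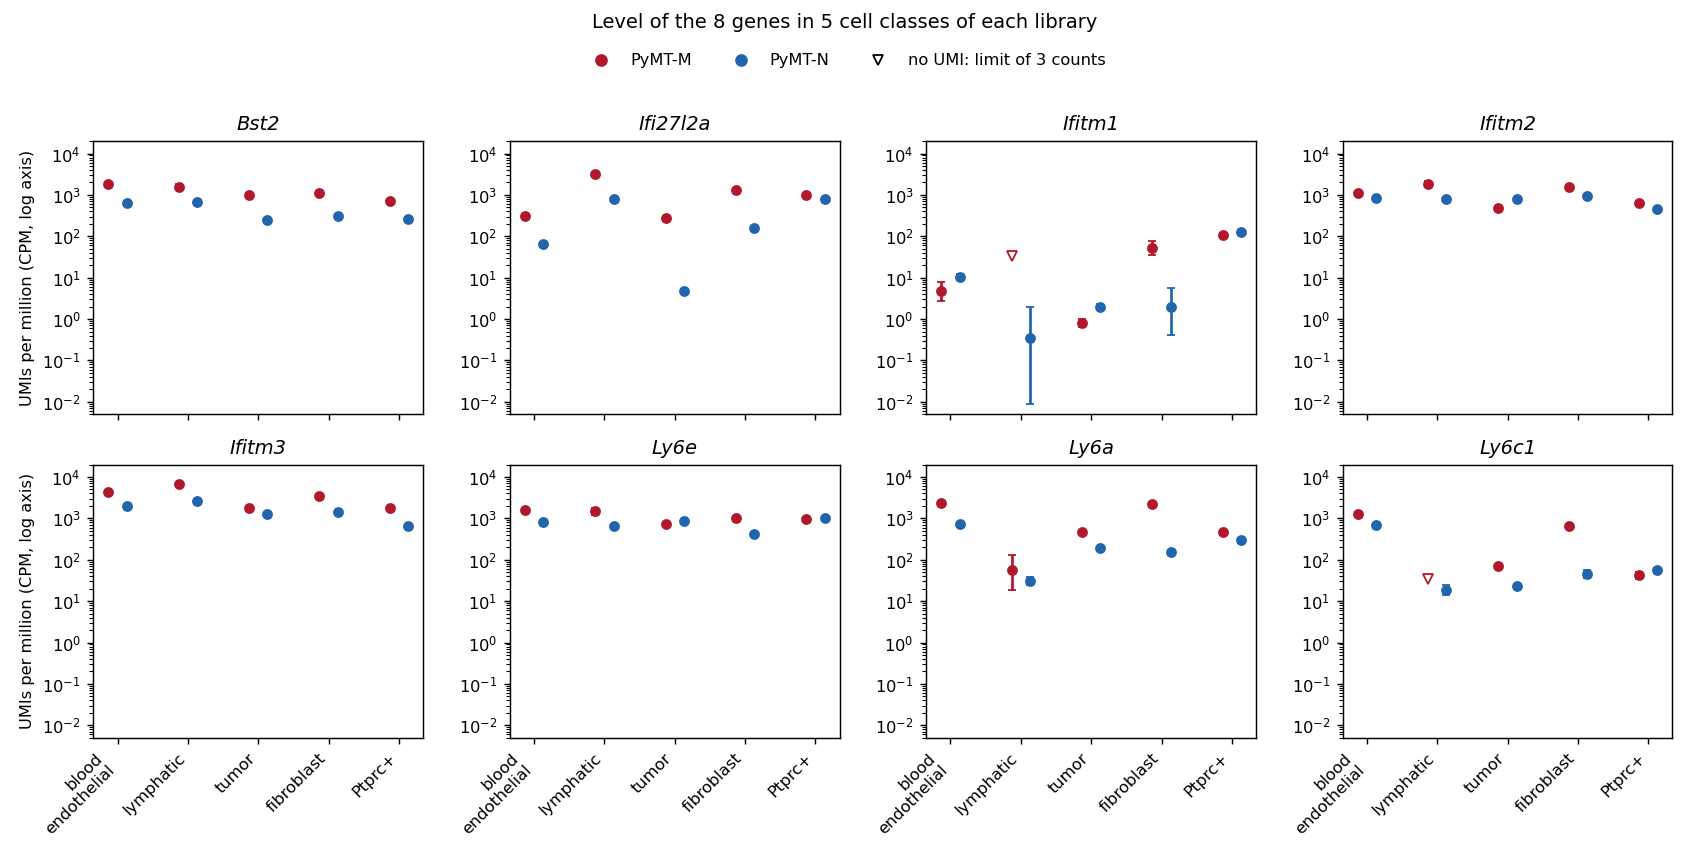
Levels of the 8 genes in CPM (log axis) in 5 cell classes, with PyMT-M in red and PyMT-N in blue, bars for 95% Poisson intervals, and an open triangle at the limit of 3 counts where a class had no UMI. Bst2 and Ifitm3 sit higher in PyMT-M in every class, and Ly6a and Ly6c1 drop from the blood endothelial to the lymphatic class.

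Cells near the blood endothelial limit are described by their levels. In PyMT-M, the 27 blood endothelial cells with 5 or 6 marker UMIs held 1775 CPM of Bst2 and 1227 CPM of Ifi27l2a, and the 47 cells just outside, with 3 or 4, held 1377 and 1284 CPM. In PyMT-N, the 21 cells just inside held 254 CPM of Bst2, 961 CPM of Ifi27l2a and 36.6 CPM of Ly6c1, and the 61 just outside held 243, 1018 and 38.8 CPM. The cells at this limit thus had more Ifi27l2a than the class as a whole in both libraries. Those of PyMT-N also had less Bst2 and Ly6c1 than their class.

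In blood endothelial cells, 4 of the 8 genes were more than 2-fold higher in PyMT-M: Ifi27l2a, Ly6a, Bst2 and Ifitm3. Of 8544 genes whose UMIs in the 2 sums came to at least 200, 2.55% were that much higher and 4.18% that much lower. The log2 ratio of PyMT-M to PyMT-N was 2.22 (95% interval 2.09 to 2.35) for Ifi27l2a, 1.66 (1.62 to 1.70) for Ly6a, 1.48 (1.44 to 1.53) for Bst2 and 1.10 (1.07 to 1.13) for Ifitm3. Ly6e, at 0.97 (0.93 to 1.02), and Ly6c1, at 0.89 (0.84 to 0.94), were close to 2-fold, and Ifitm2 was at 0.40 (0.34 to 0.45). Ifitm1, with fewer UMIs than the minimum, was at -1.13 (-1.97 to -0.38). The median ratio was 1.10 over the 7 members with the minimum and -0.01 over all 8544 genes. Markers of other cells also differed between these sums. Pericyte markers summed to 257 and 8.45 CPM, fibroblast markers to 40.9 and 6.24, macrophage markers to 20.9 (5 of 6 present) and 338 (6 of 6), B cell markers to 9.40 and 87.9, and T and NK cell markers to 4.25 and 45.9. The part of the pericyte and fibroblast markers in these ratios was not tested.

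Bst2, Ifitm3 and Ifi27l2a had higher levels in PyMT-M in the other 4 classes too. In lymphatic cells only 5 members had at least 200 UMIs. These 5 (Ifi27l2a, Ifitm3, Ifitm2, Ly6e and Bst2) were more than 2-fold higher, at log2 ratios from 1.19 to 2.04. None was lower, where 4.71% of 2911 genes were higher and 14.2% lower. Bst2 fell as low as 0.95 there under the alternatives tried, under 2-fold. These ratios rest on the 20 lymphatic cells of PyMT-M. In this class 4 lymphatic markers outside the rule (Lyve1, Pdpn, Flt4 and Ccl21a) summed to 3404 and 12997 CPM. Fibroblast markers summed to 292 and 162 CPM there, and the 8 endothelial markers to 5449 and 5218 CPM. Median depth was 3558 and 11692 UMIs. The part of these differences in the lymphatic ratios was not tested. In tumor cells, 4 genes were more than 2-fold higher and Ifitm1 lower, where 19.7% of 12553 genes were higher and 22.3% lower. Ifi27l2a led there with a log2 ratio of 5.91 (5.76 to 6.07), or 60.3-fold, followed by Bst2 at 1.98 (1.96 to 2.00), Ly6c1 at 1.62 (1.54 to 1.69) and Ly6a at 1.27 (1.24 to 1.30). Ifitm2 and Ly6e had lower levels in PyMT-M tumor cells, at -0.71 and -0.27. In fibroblast cells, 6 of the 7 members with at least 200 UMIs, all but Ifitm2, were more than 2-fold higher and none lower, where 4.32% of 1760 genes were higher and 11.7% lower. Ifitm1, with 28 and 3 UMIs, was also higher, at 4.73 (3.04 to 7.09). Ly6a and Ly6c1 reached 3.93 (3.73 to 4.14) and 3.86 (3.48 to 4.25) there, and Ifi27l2a 3.07. Of these fibroblast cells, 12 of the 58 in PyMT-M and 9 of the 63 in PyMT-N also met the tumor rule. In Ptprc+ cells only Bst2 and Ifitm3, both at 1.44, were more than 2-fold higher and none lower, where 7.28% of 5630 genes were higher and 10.3% lower. Under the alternatives tried, Bst2 fell as low as 0.96 there, under 2-fold, and Ifitm3 stayed more than 2-fold higher. Of these Ptprc+ cells, 41 of the 488 in PyMT-M and 19 of the 357 in PyMT-N also met the tumor rule. Median depth was 1721.5 and 7581 UMIs in the Ptprc+ class, against 23715.5 and 20757.5 in the tumor class. Ifi27l2a, at 0.34, Ly6e, at -0.11, and Ifitm1, at -0.19 (-0.40 to 0.02), were nearer to 0. These 3, and Ly6c1 at -0.44, did not hold one direction under the alternatives tried, where Ifi27l2a ran from -0.51 to 1.28, Ly6e from -0.35 to 0.31, Ifitm1 from -3.40 to 0.67 and Ly6c1 from -1.45 to 0.21. Whether the ratio of a gene differed between classes was not tested.

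**Figure D2:**
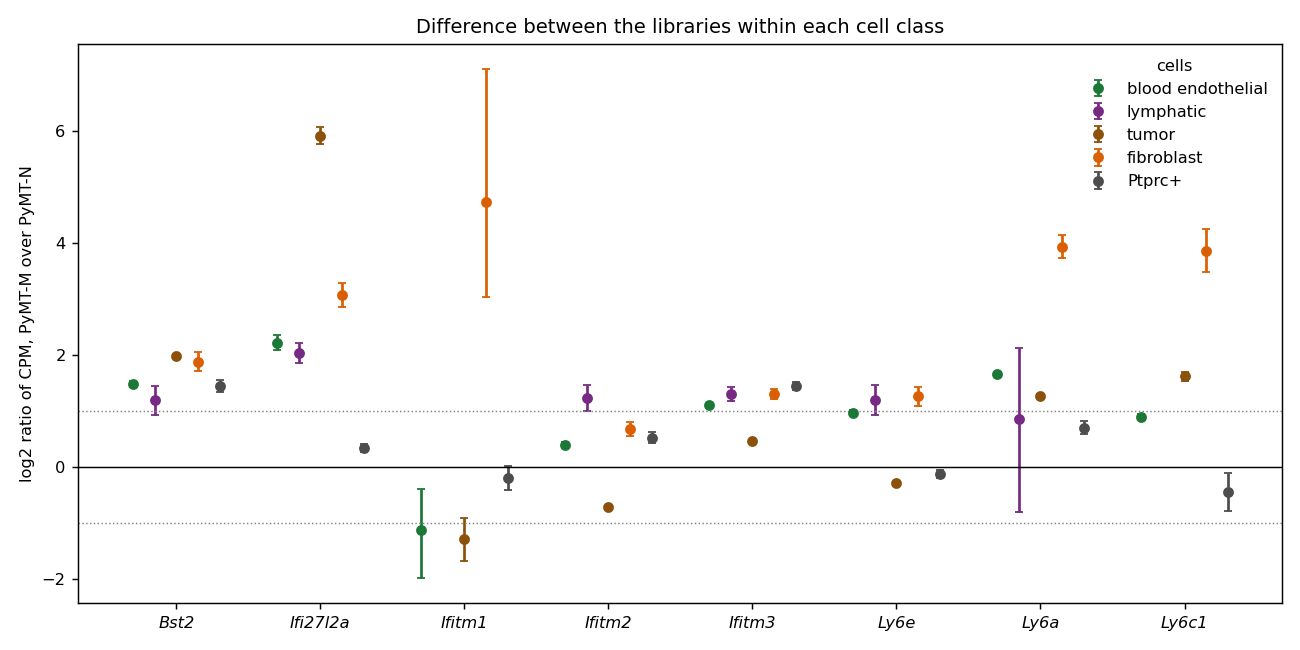
Log2 ratio of CPM in PyMT-M over PyMT-N for each gene in each of 5 cell classes, with bars for 95% intervals of a ratio of Poisson counts and dotted lines at 2-fold either way. Ifi27l2a in tumor cells, at 5.91, stands far to the PyMT-M side, and Ifitm2 and Ly6e in tumor cells lie on the PyMT-N side.

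Blood endothelial cells that also held Ptprc UMIs carried most of the Ifi27l2a and Ifitm1 of that class in PyMT-N. They numbered 56 of 1065 cells in PyMT-N and 6 of 588 in PyMT-M. The 56 cells held 843 of the 982 Ifi27l2a UMIs of the class, at 698 CPM, and 153 of its 158 Ifitm1 UMIs, at 127 CPM. They were deep, with a median of 19782 UMIs, and carried markers of macrophages (Lyz2 at 1303 CPM, C1qa at 1388 CPM) and of B cells (Cd79a at 774 CPM). The endothelial cadherin Cdh5 was found in 30.4% of them, against 99.7% of the other blood endothelial cells of PyMT-N. Bst2, at 269.9 CPM, Ly6a, at 313 CPM, and Ly6c1, at 129.97 CPM, were lower in them than in the rest of the class. Leaving out the 6% of cells with the highest Scrublet doublet scores gave the class ratios of 2.33 for Ifi27l2a and -1.06 for Ifitm1, close to those with all cells. That step took out only 5 of the 588 and 14 of the 1065 blood endothelial cells, so most of the 56 stayed in. Scrublet also did not work in PyMT-M. Whether the 56 cells were doublets was not tested.

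Without them the class held few immune transcripts, with Lyz2 at 0.921 and 0.949 CPM. Cd79a was less even, at 3.07 and 0.438 CPM, from 10 UMIs in 4 cells and 6 UMIs in 6 cells. In these 582 and 1009 cells, a comparison added after the values were seen, Ifi27l2a stood at 297 and 10.1 CPM, detected in 37.8% and 4.66% of cells at medians of 5199.5 and 12397 UMIs. Its log2 ratio rose from 2.22 to 4.87 (4.61 to 5.14). Ifitm1, with 16 and 5 UMIs, turned from -1.13 to 3.75 (2.24 to 5.55). Its UMIs lay in 5 and 4 cells, 0.859% and 0.396% of cells, and 10 of the 16 lay in 2 cycling cells of PyMT-M. The interval treats UMIs of the same cell as separate counts, so it is too narrow for this gene. The other members moved little, with Bst2 at 1.42, Ly6a at 1.60, Ifitm3 at 1.02, Ly6e at 1.01, Ly6c1 at 0.80 and Ifitm2 at 0.34. Ifitm3 (0.99 to 1.05) and Ly6e (0.96 to 1.05) had intervals on both sides of 2-fold. Of the 7 members with at least 200 UMIs, 5 were then more than 2-fold higher and none lower, beside Ifitm1 with fewer UMIs, where 2.71% of 8162 genes were higher and 2.71% lower. In PyMT-M the 6 cells with Ptprc UMIs held 45 of the 1012 Ifi27l2a UMIs, so its level there hardly depended on them.

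**Figure D3:**
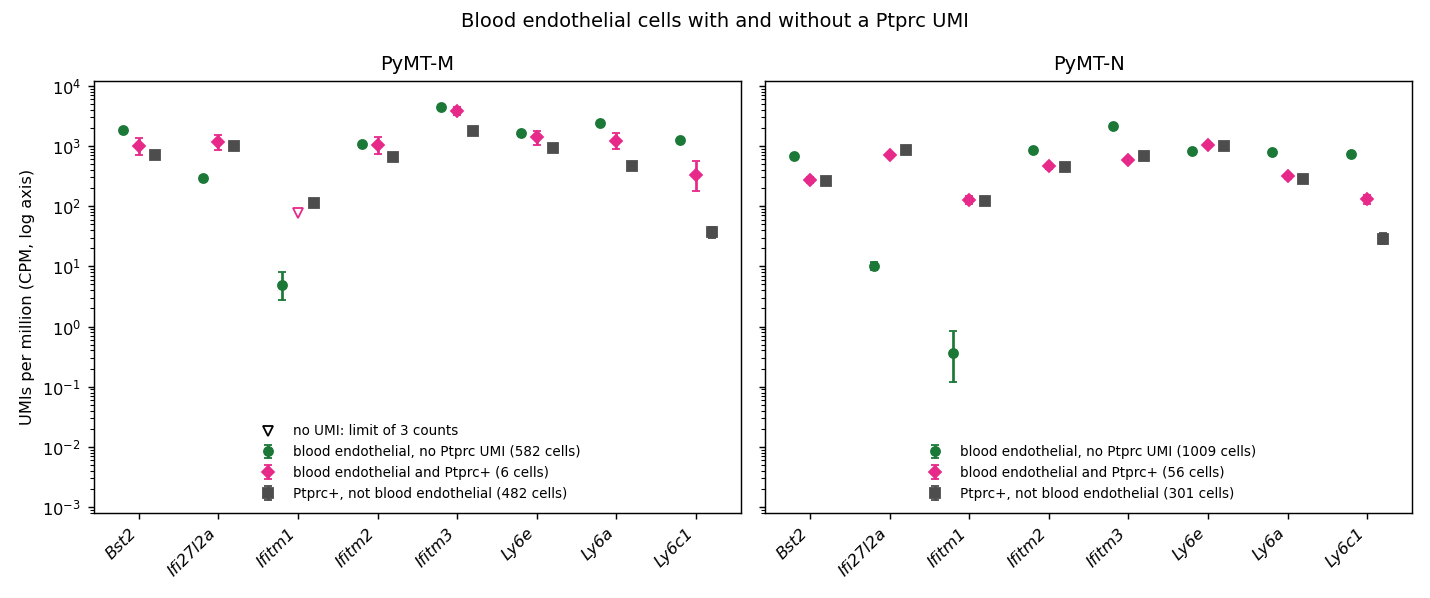
Levels of the 8 genes in CPM (log axis) in blood endothelial cells with no Ptprc UMI (green circles), blood endothelial cells with one (pink diamonds) and other Ptprc+ cells (grey squares), 1 panel per library, with 95% Poisson intervals and an open triangle at the limit of 3 counts where there was no UMI. In PyMT-N, Ifi27l2a falls from 698 CPM in the 56 cells with Ptprc UMIs to 10.1 CPM in the cells without.

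The spread over single cells differed between members. After thinning to 3000 UMIs, 480 blood endothelial cells of PyMT-M and 1058 of PyMT-N remained. Bst2 was then found in 95.6% and 73.3% of cells, with medians of 5 and 1 UMIs per cell. Ifitm3 had medians of 13 and 5 UMIs, and 59.8% of PyMT-M cells against 17.96% of PyMT-N cells held more than 10. Most cells of PyMT-M thus carried more Ifitm3 than most cells of PyMT-N. Ly6a had medians of 6 and 2 UMIs, with more than 10 in 23.3% and 1.70% of cells, and Ly6e medians of 5 and 2. Ly6c1 and Ifitm2 both had medians of 3 and 2 UMIs. Ifitm1 was at 0 in 99.4% and 99.5% of cells. Ifi27l2a was found in 33.5% of the thinned PyMT-M cells and reached 23 UMIs in 1 cell, so that its class level came from a minority of cells. In PyMT-N it was found in 6.14% of thinned cells, those with Ptprc UMIs included.

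In thinned tumor cells Bst2, Ifi27l2a, Ly6a, Ly6c1 and Ifitm3 were found in more cells of PyMT-M. Bst2 was found in 90.1% of 4901 PyMT-M cells and 42.0% of 3304 PyMT-N cells, Ifi27l2a in 45.8% and 0.938%, Ly6a in 60.3% and 28.2%, and Ly6c1 in 16.9% and 5.36%. Ifitm2 and Ly6e went the other way, at 73.6% and 89.5% for Ifitm2 and 84.8% and 87.7% for Ly6e. Ifitm3 was found in 97.1% and 93.6% of cells. Ifitm1 was found in 0.265% and 0.272%. In lymphatic cells Ifi27l2a was found in 90.9% of the 11 thinned cells of PyMT-M, with a median of 10 UMIs, and in 59.0% of the 205 of PyMT-N, with a median of 1.

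**Figure D4:**
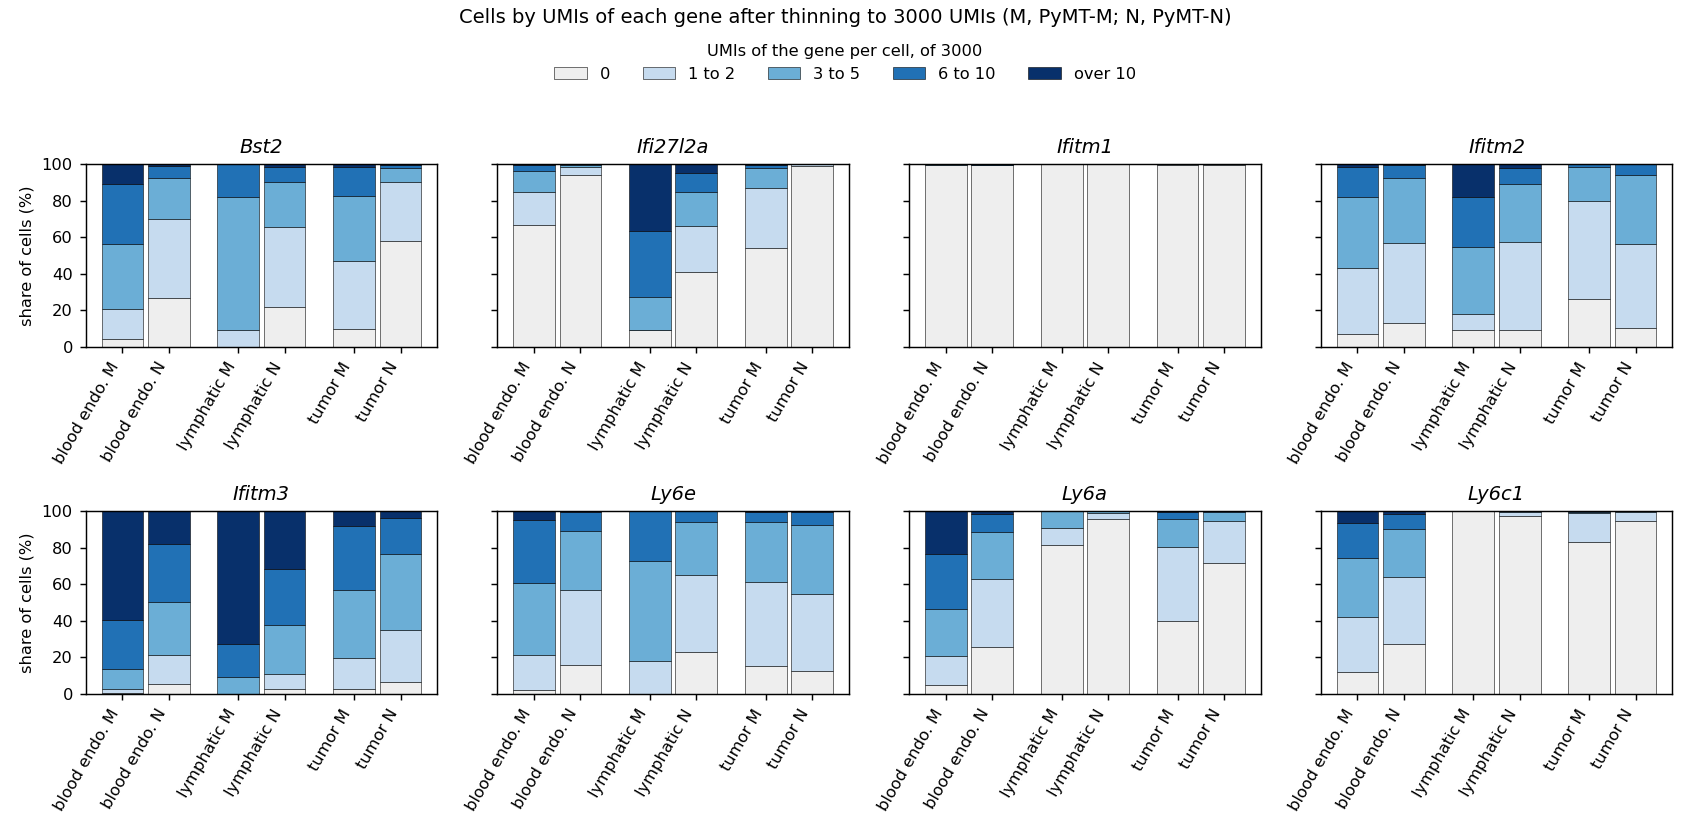
Share of cells by the number of UMIs of each gene (0, 1 to 2, 3 to 5, 6 to 10 and over 10) after thinning each cell to 3000 UMIs, for blood endothelial, lymphatic and tumor cells of each library. The bars of Ifitm3 and Bst2 shift to higher counts in PyMT-M blood endothelial cells, whereas Ifi27l2a is at 0 in most cells of that class.

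Endothelial cells differ along the vessel tree, so the members were followed over ranges of blood endothelial cells set by small marker sums. A cell could be in several ranges, and these are ranges of a count and not cell types. Tip-like cells needed 5 UMIs of Esm1, Apln, Angpt2 and Pgf (200 and 419 cells), capillary cells 5 of Gpihbp1, Cd36, Car4, Fabp4 and Cd300lg (467 and 899), arterial cells 3 of Gja5, Gja4, Sema3g and Hey1 (52 and 169), venous cells 3 of Ackr1, Selp, Sele and Vcam1 (79 and 102), and cycling cells 3 of Mki67 and Top2a (65 and 91). In the arterial range 14 and 46 cells were at the minimum and 24 and 101 were 1 UMI below it, and in the venous range 24 and 17 were at it and 28 and 34 just below. Ly6c1 was highest in arterial cells of both libraries, at 2042 and 945 CPM, and lower in venous cells, at 800.3 and 556, and in cycling cells, at 785 and 532. Ly6a was likewise highest in arterial cells, with 3334 and 877 CPM, against 2445 and 790.1 in capillary cells, 1786 and 693 in venous cells and 1745 and 664 in cycling cells. Bst2 was lowest in venous cells of PyMT-M, at 1539 CPM, and in cycling cells of PyMT-N, at 490.2 CPM. Ifitm2 was highest in venous cells instead, at 1427 and 999.99 CPM, and stood at 864 and 839.9 CPM in tip cells. Ifitm3 was highest in arterial and venous cells of PyMT-M, at 4862 and 4822 CPM, and in venous cells of PyMT-N, at 2472 CPM.

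Bst2, Ly6a, Ifitm3, Ly6e and Ly6c1 were higher in PyMT-M in every range. The log2 ratio of PyMT-M to PyMT-N ran from 1.42 to 1.75 for Bst2, from 1.37 to 1.93 for Ly6a, from 0.96 to 1.39 for Ifitm3, from 0.50 to 1.15 for Ly6e, from 0.52 to 1.11 for Ly6c1 and from 0.04 to 0.61 for Ifitm2, whose interval in tip cells (-0.05 to 0.13) held 0. Ifi27l2a varied more, from 0.25 in cycling cells, where its interval (-0.04 to 0.54) also held 0, and 1.25 in venous cells to 4.25 in tip cells. Without the cells with Ptprc UMIs it ran from 4.17 in venous to 5.82 in tip cells. Its highest level was then in venous cells of both libraries, at 404 CPM (54.4% of cells) and 22.5 CPM (10.9%). The capillary range held 269 and 8.94 CPM of Ifi27l2a, the tip range 231 and 4.10, the arterial range 211 and 7.41, and the cycling range 230.5 and 12.5. Without the cells with Ptprc UMIs, Bst2, Ly6a, Ifitm3, Ly6e and Ly6c1 were still higher in PyMT-M in every range. Their lowest log2 ratios were then in venous cells, 1.24 for Bst2, 1.15 for Ly6a, 0.74 for Ifitm3, 0.55 for Ly6e and 0.28 for Ly6c1.

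Ly6c1 and Ly6a were higher in blood than in lymphatic endothelium, and Ifi27l2a was lower. Ly6a was higher in blood endothelial than in lymphatic cells by a log2 ratio of 5.39 (4.17 to 7.01) and 4.58 (4.28 to 4.90). Ly6c1 was 37.6-fold higher in PyMT-M with the lymphatic sum, which held no UMI, set to 3 counts. In PyMT-N it was higher by 5.22 (4.83 to 5.64). Of the 7 members with at least 200 UMIs, these 2 were more than 2-fold higher in PyMT-M, where 17.8% of genes were, and in PyMT-N, where 8.66% of genes were. Ifitm1 in PyMT-N, with 158 UMIs and 1, stood at 4.91, and at 0.05 without the cells with Ptprc UMIs. Ifi27l2a was the 1 member more than 2-fold lower in each, at -3.40 and -3.58, where 5.7% and 6.14% of genes were. Without the cells with Ptprc UMIs the PyMT-N value of Ifi27l2a was -6.28. Bst2 stayed within 0.20 and -0.09, and Ifitm3 was somewhat lower in blood endothelial cells, at -0.59 and -0.39.

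Against tumor cells, with all blood endothelial cells kept, no member was more than 2-fold lower in either library. In PyMT-M 5 of the 7 members with at least 200 UMIs were more than 2-fold higher, as was Ifitm1 (16 and 97 UMIs), where 19.2% of genes were higher and 19.7% lower, led by Ly6c1 at 4.18 and Ly6a at 2.37. In PyMT-N 5 were, where 17.4% of genes were higher and 15% lower, again with Ly6c1, at 4.91, and Ly6a, at 1.98. Without the cells with Ptprc UMIs, Ifitm1 in PyMT-N turned from 2.44 to -2.42, with 5 UMIs left, and Ifi27l2a moved from 3.82 to 1.12. There 4 members were more than 2-fold higher and 1 lower. The share over all genes was not computed without those cells, so this count cannot be set against one. Ly6c1 and Ly6a set blood endothelial cells apart from lymphatic and tumor cells in both libraries. In PyMT-M fibroblast cells Ly6a stood at 2289 CPM, with an interval overlapping that of blood endothelial cells, and Ly6c1 at 663 CPM. Ly6e was higher in blood endothelial cells of PyMT-M, at 1.19, and not in PyMT-N, at -0.06. The Bst2 ratio was 0.87 in PyMT-M and 1.37 in PyMT-N.

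Ly6c1 was found in 59.8% of tumor cells of PyMT-M and 23.7% of those of PyMT-N, at medians of 23715.5 and 20757.5 UMIs, but in 5.31% of the lymphatic cells of PyMT-N at a median of 11692 UMIs. Other endothelial transcripts were counted beside it. The tumor rule leaves out cells with any Pecam1 or Flt1 UMI, so it may also lower these transcripts in the tumor class. The tumor class held 234 and 17.5 Ly6c1 UMIs per UMI of Cldn5, a tight junction gene, against 2.37 and 0.918 in blood endothelial cells. Per UMI of Esam the values were 70.2 and 19.5, against 1.79 and 0.931. Per UMI of Egfl7 and Ramp2, which PyMT-M tumor cells held at 34.4 and 45.7 CPM, they were 2.03 and 1.53 in PyMT-M, against 0.754 and 1.60. Ly6a gave 1532 and 146 UMIs per UMI of Cldn5 in tumor cells, against 4.41 and 0.999. The tumor class of PyMT-M held only 36 Cldn5 UMIs. With Egfl7 the Ly6a values were 13.3 and 36.4, against 1.40 and 0.575. With Ramp2 they were 9.98 and 90.4, against 2.98 and 1.25, so the gap in PyMT-M was much smaller by these 2 genes. The part of RNA freed from endothelial cells in these levels was not tested.

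Within the Ptprc+ class of PyMT-M, Ifitm3 and Ifi27l2a were highest in cells with macrophage transcripts. Cells with at least 3 UMIs of Lyz2, Csf1r, Adgre1 and C1qa numbered 130 and 146, and those with at least 2 UMIs of lymphocyte genes (Cd3e, Cd3d, Nkg7, Trbc2, Cd79a and Ms4a1) 313 and 321. Of these, 47 and 133 met both rules. The macrophage range held 3018 and 493 CPM of Ifitm3, a log2 ratio of 2.61, and 2010.4 and 927 CPM of Ifi27l2a, a ratio of 1.12. Bst2 stood at 669.7 and 224 CPM there, with a ratio of 1.58, and Ly6e at 1231 and 1059 CPM. In the lymphocyte range Ifi27l2a did not separate the libraries, at 892 and 866 CPM, whereas Bst2, at 638 and 229 CPM, and Ifitm3, at 1313 and 529 CPM, were higher in PyMT-M. In the 83 and 13 cells of the macrophage range alone, Ifitm3 stood at 4047 and 1306 CPM and Ifi27l2a at 2436 and 844 CPM, so Ifitm3 stayed higher in PyMT-M without the cells of both ranges.

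A list of 32 type I interferon-stimulated genes, which does not hold the members, also stood higher in PyMT-M blood endothelial cells. Of the 32, 26 were more than 2-fold higher in PyMT-M and 0 lower, with a median log2 ratio of 1.38. Among the 11547 genes with the minimum of 50 UMIs used for these lists, 4.17% were that much higher and 6.99% lower. Oas3, at 3.03, and Oas2, at 2.79, which make the activator of RNase L, were highest, and Isg15, the ubiquitin-like modifier, was at 675 and 167 CPM, a ratio of 2.02. Samd9l, at 0.55, and the RNA sensor Rigi, at 0.57, were lowest. Of 27 genes known to be induced by interferon gamma, 17 were higher and 4 lower, with a median of 1.05. The chemokines Cxcl10, at 1.96, and Cxcl9, at 1.72, were among the highest, and the MHC class II genes Cd74, H2-Aa and H2-Ab1 and their regulator Ciita, at -3.71, -3.95, -2.93 and -3.95, were lower. Without the cells with Ptprc UMIs none of the genes of this list with at least 50 UMIs was lower, and genes under that minimum were not counted. There 24 of the 27 had at least 50 UMIs, 17 were higher and 0 lower, with a median of 1.26, where 4.79% of 11045 genes were higher and 3.92% lower. In those cells Cd74 was at 8.29 and 2.63 CPM, a ratio of 1.66. The type I list then had 26 higher and 0 lower, with a median of 1.35.

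The ligands, receptors and signaling genes of the same pathways differed less. Of 23, 16 had at least 50 UMIs in blood endothelial cells, 2 were more than 2-fold higher and 0 lower, and the median was 0.10. The 2 were Irf7, a transcription factor that is itself interferon-stimulated, at 396 and 104 CPM (1.93), and Stat2 (1.01). The type I receptor genes Ifnar1, at -0.12, and Ifnar2, at -0.02, and the interferon gamma receptor gene Ifngr1, at -0.19, differed little. Ifnb1, Ifna2 and Ifna4 had no UMI in blood endothelial cells, and Ifng had 1 UMI in each library.

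In lymphatic cells 28 type I genes had at least 50 UMIs, 10 were higher and 1 lower, with a median of 0.77, where 8.87% of 7569 genes were higher and 5.69% lower. In tumor cells 13 of 32 were higher and 1 lower, with a median of 0.86, and 12 of 26 interferon gamma genes were higher and 4 lower, with a median of 0.75. Of 14996 genes 21% were higher and 25.6% lower in tumor cells. Signaling genes fell on the other side there, with 1 higher and 8 lower of 17 and a median of -0.92. Ifnar1 was at -1.14, Ifnar2 at -1.24, Ifngr2 at -2.22 and Jak2 at -4.08. Ifnb1, which encodes interferon beta, was the 1 higher, with 87 UMIs in PyMT-M tumor cells and 5 in PyMT-N, at 0.720 and 0.0662 CPM and a ratio of 3.44 (2.17 to 5.10). Over all genes with at least 50 UMIs the median was -0.0068 in blood endothelial, 0.19 in lymphatic and -0.09 in tumor cells, with sums under 3 set to 3 counts. The lists were drawn up with earlier results of these libraries known, so their direction is no independent support.

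**Figure D5:**
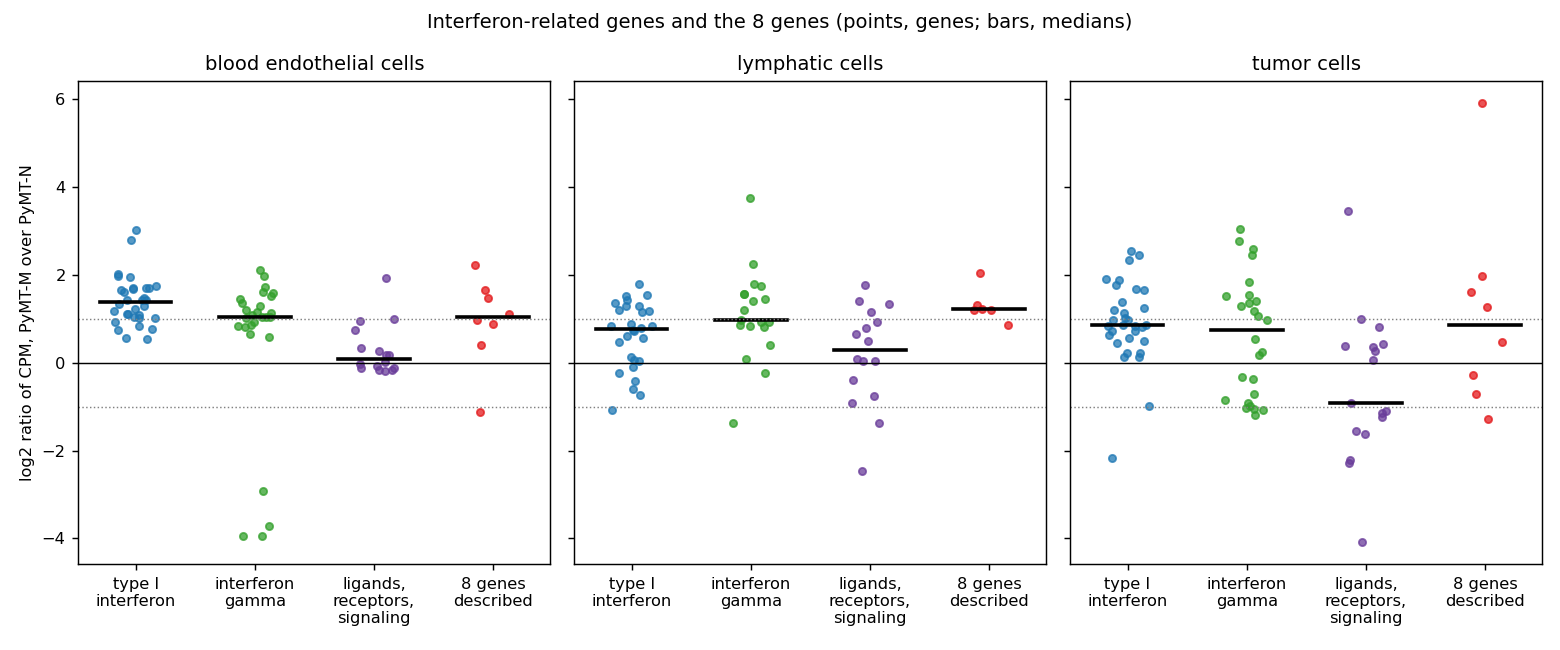
Log2 ratio of CPM in PyMT-M over PyMT-N for genes with 50 or more UMIs in 3 interferon lists and among the 8 genes, in blood endothelial, lymphatic and tumor cells, with bars at the medians. In blood endothelial cells the type I list has its median at 1.38 and the signaling list at 0.10, and in tumor cells the signaling list has its median at -0.92.

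Relatives of the members were counted beside them. Ifi27, of the same family as Ifi27l2a, was lower in PyMT-M in blood endothelial cells (91.9 and 143 CPM, -0.64), in lymphatic cells (-1.59) and in tumor cells (100.5 and 205 CPM, -1.03). Of Ifitm5, Ifitm6, Ifitm7 and Ifitm10, 0 had 50 UMIs in blood endothelial cells. In tumor cells Ifitm6 had 371 and 1 UMIs, a log2 ratio of 7.86, and Ifitm10 was lower in PyMT-M, at -4.20. Of 20 other genes of the Ly6 and uPAR family, 6 had at least 50 UMIs in blood endothelial cells, where 0 were higher and 2 lower, Ly6d at -2.76 and Ly6c2 at -1.15, with a median of 0.23. Gpihbp1, which carries lipoprotein lipase to the capillary lumen, was at 1496 and 1331 CPM (0.17). Without the cells with Ptprc UMIs 4 of the 20 had the minimum, 0 were higher and 0 lower, and the median was 0.31.

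Over the 10 sums of 5 classes in 2 libraries, Bst2 and Ifitm3 had the most similar patterns of any pair of members, with a Pearson r of log2(CPM + 1) of 0.88, followed by Ly6a and Ly6c1 at 0.86 and Ifitm2 and Ifitm3 at 0.83. Among 10768 genes with at least 1000 UMIs, the patterns most like Bst2 were those of U2af1l4 and Slfn9, both at 0.96. Those most like Ifitm3 were Tmem234, at 0.97, and Mvp, at 0.96, those most like Ly6c1 were Car13 and Dusp23, both at 0.95, and Ly6e was most like B2m, at 0.91. For Ifi27l2a the nearest was Dhdds, at 0.92, for Ifitm1 Rrm2b, at 0.91, for Ifitm2 Sdhaf4, at 0.95, and for Ly6a Nucb2, at 0.87. The 10 sums share libraries and depth, so these values are a description. Across thinned blood endothelial cells, Ly6a and Ly6c1 correlated at 0.53 and 0.42, and Bst2 and Ifitm3 at 0.47 and 0.49. Bst2 and Isg15 correlated at 0.45 and 0.35. Ifi27l2a and Bst2 were at 0.09 and -0.08, and in tumor cells at 0.33 and 0.09. The blood endothelial correlations include the cells with Ptprc UMIs and were not recomputed without them. In PyMT-N such cells made up 40 of the 65 thinned blood endothelial cells with Ifi27l2a UMIs. Their part in these correlations was not tested. Cells are not replicates, and all of a library's cells share its preparation.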

How the data were processed

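Single cells sorted from PyMT-M and PyMT-N tumors were profiled with 10x Genomics 3′ chemistry (v3.1). The authors deposited UMI counts, whole numbers per gene and cell barcode, not normalized, made with Cell Ranger 8.0.0 on the build mm39 per the submitters' processing notes. The libraries held 141067264 UMIs (PyMT-M) and 116150425 (PyMT-N), and kept cells had medians of 21262 and 18558. Promoters come from another build and were matched by gene symbol. Counts were summed per class and library in Python 3.11.15 with numpy 2.4.6, scipy 1.17.1 and pandas 2.3.3. Levels have exact Poisson intervals, ratios exact conditional intervals and shares Clopper-Pearson intervals, all at 95%. With 1 library a condition no test was made, and 2-fold is a fixed size. Where a sum held no UMI, 3 counts were used. The ratio and counting steps were tested on simulated data. Scrublet (scanpy 1.11.5) called 1 barcode a doublet in PyMT-M, where it did not work, and 181 in PyMT-N (3.23%), so no barcode was removed by it. The members, classes and gene lists were chosen with earlier results of these data known. Besides the members, the genes named were taken from the 3 highest and lowest of each list, class markers, and the 3 most alike in pattern. Not all of the highest, lowest and most alike genes are named, and which ones were named followed no rule. The paralog Ly6c2, other list genes (Isg15, Ifnb1, MHC class II and receptor genes) and Cdh5 were named after their values were seen. Alternatives covered cell filters, doublet scores, class limits, scaling, thinning and fold size. The value of 1 gene of the signaling list is not reported here.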

Additional observations from a re-analysis of the deposited data

Results flagged for a closer look

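Each of these 3 values lay on opposite sides of 0 in the 2 libraries, and the difference between the libraries was not tested, since each condition had 1 library. The log2 ratio of Ly6e in blood endothelial over tumor cells was 1.19 in PyMT-M and -0.061 in PyMT-N. The ratio of Ly6e in blood endothelial over Ptprc+ cells was 0.80 in PyMT-M and -0.29 in PyMT-N. The ratio of Ifitm1 in blood endothelial over fibroblast cells was -3.42 in PyMT-M and 2.44 in PyMT-N, where the fibroblast cells of PyMT-N held 3 Ifitm1 UMIs and 153 of the 158 in blood endothelial cells came from cells with Ptprc UMIs.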

How the results depend on the processing

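No paired analysis was possible because each condition had 1 library and the results come from no test. Of 174 recomputed counts of members, 154 stayed within 1.5 times. The 1 member lower in PyMT-M in blood endothelial cells became 0 with detected genes within 2-fold of the library median, with cells of exactly 1 class, with stricter class limits, with no Ptprc UMI (chosen after seeing the data) and with a fold of 3. The 1 lower in tumor cells became 0 without the 6% of highest Scrublet scores, with cells of exactly 1 class, with no Mki67 or Top2a UMI, with the mean of CPM per cell, after thinning and with a fold of 3, and 2 with a fold of 1.5. In Ptprc+ cells 0 lower became 1 with the gene window, with no Mki67 or Top2a UMI and with the mean per cell, and 2 higher became 4 with no Mki67 or Top2a UMI and 0 with a fold of 3. With a fold of 3, 4 higher in blood endothelial cells became 2, 5 in lymphatic cells became 1, and 6 higher in blood endothelial than tumor cells of PyMT-M became 3. The share of all genes was recomputed for blood endothelial cells with no Ptprc UMI (2.71% higher and 2.71% lower). It was also recomputed without mitochondrial, ribosomal protein and hemoglobin genes and with the median ratio of all genes at 0. With no minimum of UMIs it was 9.72% higher and 6.86% lower in blood endothelial cells. The share was not recomputed for the other alternatives, so those counts cannot be set against it. Ifitm1 in blood endothelial cells reversed, to 3.66 in cells of exactly 1 class, 1.19 with stricter limits and 3.75 with no Ptprc UMI. By construction the first and last leave out blood endothelial cells with Ptprc UMIs. For the other changes the cause was not tested. Of 387 recomputed ratios, 226 stayed inside the counting interval and 13 changed sign, 3 of them Ifitm1 in blood endothelial cells and 10 in Ptprc+ cells (Ifi27l2a, Ifitm1, Ly6e and Ly6c1). Ifi27l2a in blood endothelial cells ran from 1.99 to 4.99. A total counted without mitochondrial, ribosomal protein or hemoglobin genes moved the tumor median of all genes from -0.04 to 0.16 and the share of called genes that were higher from 47.0% to 55.7%, with Ly6e there at -0.07 and Ifitm2 at -0.50. Depth limits the lymphatic values of PyMT-M, which rest on 20 cells, and Ifitm1 everywhere but in Ptprc+ cells.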

Other observations

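Kept cells in none of the 5 classes numbered 724 in PyMT-M and 699 in PyMT-N. Ifi27l2a stood at 273 CPM in those of PyMT-M and 11.4 CPM in those of PyMT-N, a log2 ratio of 4.58. Bst2 was at 1005 and 324 CPM, and Ly6a at 504 and 258 CPM. Ly6c1 was at 115 and 113 CPM and did not separate the libraries there, and Ifitm2 was lower in PyMT-M, at 496 and 757 CPM.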
